A study of Mus musculus with 3 samples.

Results

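DNA methylation is written, erased and read by a small set of proteins, and the RNA of 10 of their genes was compared between *tuft* and wild-type (WT) embryos. The set holds the TET dioxygenases (*Tet1*, *Tet2* and *Tet3*), thymine DNA glycosylase (*Tdg*), the DNA methyltransferases (*Dnmt1*, *Dnmt3a* and *Dnmt3b*), *Uhrf1* and the methyl-CpG-binding proteins *Mbd2* and *Mbd3*. They were chosen by name from 24062 gene symbols, and 9 of the 10 had a count. RNA was sequenced from the rostrum, or anterior head, of embryos at E9 (18-22 somites). The WT embryos were of the 3H1 Balb background strain. The *tuft* embryos were of the same strain, were homozygous for a spontaneous nonsense allele of *Tet1* and had neural tube closure defects. Each sample was a pool of RNA from 3 embryos. The labels list 1 WT and 2 *tuft* samples, but each genotype had 1 column of counts, and that of *tuft* could hold either sample or both. These columns are called libraries here, and no value has a replicate error.

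A methyl group on the cytosine of a CpG is placed by DNMT3A and DNMT3B and is copied to the new strand after replication by DNMT1, which UHRF1 recruits to CpGs methylated on the old strand. TET enzymes oxidize 5-methylcytosine to 5-hydroxymethylcytosine and further, and TDG cuts out the most oxidized forms so that base excision repair can put back an unmethylated cytosine. MBD2 binds methylated CpGs, and MBD2 and MBD3 each belong to a form of the NuRD complex, which remodels nucleosomes and removes acetyl groups from histones.

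The mutated codon of *Tet1* and a stretch of *Tdg* that has copies elsewhere in the genome are shown here. In *Tet1*, the capitals mark the arginine codon that is a stop codon in *tuft*. Its first base is at position 62276398 of chromosome 10 in NCBIM37 (minus strand), in exon 12 of the 13 of the annotated transcript, and 317 residues of the 2039-residue protein lie from that codon to the end. In *Tdg*, the 60 bases at chr10:82104061-82104120 (NCBIM37, plus strand, coding exon) are also present, base for base, at chr10:41774926-41774985 (minus strand) in *Gm9855*, at chr15:82347041-82347100 (plus strand) in *Gm5806* and at chr7:83390639-83390698 (minus strand) outside annotated genes.
*Tet1* codon: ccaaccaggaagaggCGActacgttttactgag
*Tdg* stretch: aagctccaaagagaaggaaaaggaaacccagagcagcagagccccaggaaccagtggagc

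The libraries held 6433067 (*tuft*) and 14251942 (WT) counts on genes, and 11795 and 16914 genes had a count. Levels are given as counts per 1000000 counts on genes (CPM). Intervals are 95% intervals for counting error only, and they do not cover the spread between embryos. A count of 0 allowed up to 3 counts, which are 0.466 CPM in *tuft* and 0.210 CPM in WT. Other ways of scaling the libraries to each other moved every ratio alike. TMM, which was used in the study, moved them by 0.39 on the log2 scale, so TMM values are given where they matter. In RNA of whole tissue, fewer cells of a type and less RNA per cell cannot be told apart.

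*Tet1*, the mutated gene, had 32 counts in *tuft* and 435 in WT. These are 4.97 CPM (3.40 to 7.02) and 30.5 CPM (27.7 to 33.5). The level in *tuft* was 6.14-fold lower, with a *tuft*-to-WT ratio of 0.163 (0.110 to 0.234), an interval wholly below 0.5. Such intervals were frequent. Of 13979 genes compared, 5280 were past 2-fold lower with a ratio interval wholly below 0.5. Another 1730 were past 2-fold higher with a ratio interval wholly above 2. The gene lies on the minus strand at chr10:62804570-62887469 (GRCm38), and the counts were summed over all of its exons, so they do not separate RNA before the mutated codon from RNA after it. The study also measured *Tet1* RNA by quantitative PCR in E9 rostrums. In homozygous *tuft* embryos it was at less than 0.5 of the WT amount.

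*Tet2* is the family member that lacks the CXXC DNA-binding domain. Its count was 0 in *tuft* and 129 in WT (9.05 CPM, 7.56 to 10.8), and it was thus at least 19.4-fold lower in *tuft* against the floor of 3 counts (at least 14.8-fold on the TMM scale). A 0 in *tuft* was common among genes near this WT level. Of 3031 genes with 5 to 20 CPM in WT, 604 (19.9%) had no count in *tuft*, as against 135 of 3075 (4.39%) at 20 to 50 CPM. The study's quantitative PCR of E9 rostrums found no significant difference from WT in *Tet2* or *Tet3* RNA. The study also reports no significant difference for either gene from its own RNA-Seq analysis. The 0 of *Tet2* here is thus not evidence that its RNA is lost in *tuft* embryos.

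*Tet3*, known for oxidizing the paternal genome in the zygote, had 884 counts in *tuft* and 1760 in WT. Its levels of 137 CPM (129 to 147) and 123 CPM (118 to 129) were within 2-fold of each other, with a ratio of 1.11 (1.03 to 1.21). The ratio was above 1 under each scaling, between 0.10 and 0.60 on the log2 scale.

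**Figure D1:**
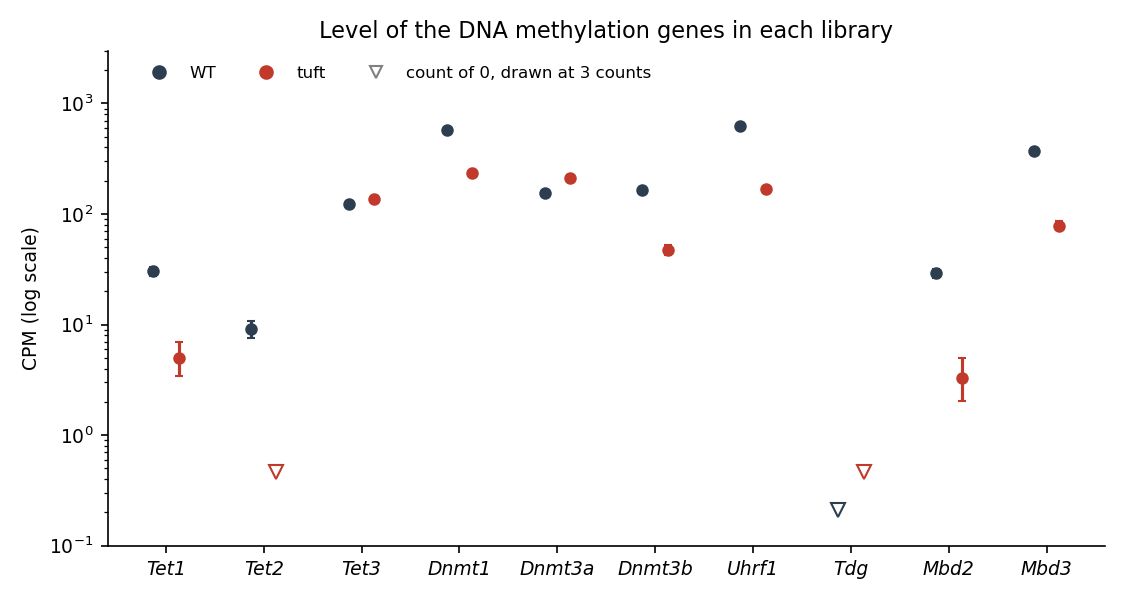
Level of each of the 10 genes (CPM, log axis) in the WT and the *tuft* library, with 95% counting intervals as bars. Open triangles mark counts of 0 at the level of 3 counts. *Tet3* and *Dnmt3a* were higher in *tuft*, 7 genes were lower and *Tdg* was at 0 in both.

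*Tdg* had no count in either library. Its 0 cannot be read as a lack of RNA. Of the 100-base windows of its longest transcript in NCBIM37, 2245 of 3403 (66.0%) occur elsewhere in that genome, and reads that align to more than 1 place are not counted. The share was lower for the other members. It was 10.2% for *Uhrf1*, which shares sequence with *Gm5648* on chromosome X, 1.30% for *Dnmt3b*, 0.0881% for *Tet2* and 0 for the rest. The reads were trimmed to varied lengths, and shorter windows are shared more often. With 50-base windows the shares were 79.0% for *Tdg*, 29.7% for *Uhrf1*, 8.05% for *Dnmt3b*, 0.635% for *Tet2*, 0.161% for *Tet1*, 0.0921% for *Tet3* and 0 for the rest. The counts of *Uhrf1* and *Dnmt3b* may thus leave out a part of their reads. The remaining windows of *Tdg* gave no count either, and the cause was not tested. *Gm9855*, which holds a copy of much of *Tdg*, also had a count of 0 in both libraries, whereas *Glt8d2*, which overlaps the *Tdg* gene over 369 bases, had 229 counts in *tuft* and 10 in WT. In all, 6922 of the 24062 genes (28.8%) were at 0 in both libraries.

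Among the writers, *Dnmt1*, the maintenance methyltransferase, had 1513 counts in *tuft* and 8151 in WT. Its levels were 235 CPM (223 to 247) and 572 CPM (560 to 584), and its ratio was 0.411 (0.389 to 0.434). This is 2.43-fold lower in *tuft*, but the gene was not past 2-fold on the TMM scale, on which its ratio was 0.541.

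*Dnmt3a* and *Dnmt3b*, the *de novo* methyltransferases, differed in opposite directions. *Dnmt3a* had 1376 counts in *tuft* and 2211 in WT, or 214 CPM (203 to 226) and 155 CPM (149 to 162). Its ratio of 1.38 (1.29 to 1.48) was within 2-fold, and was 1.81 with TMM. *Dnmt3b* had 305 counts in *tuft* and 2350 in WT, or 47.4 CPM (42.2 to 53.0) and 165 CPM (158 to 172). It was 3.48-fold lower in *tuft*, with a ratio of 0.288 (0.254 to 0.324). In WT, there were 0.941 (0.887 to 0.998) counts of *Dnmt3a* for each count of *Dnmt3b*, and in *tuft* there were 4.51 (3.98 to 5.12). This count ratio was 4.80 times higher in *tuft* (4.18 to 5.50), a value that does not depend on how the libraries are scaled to each other. The count ratios between genes given here were not set beside those of gene pairs at large.

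*Uhrf1* had 1089 counts in *tuft* and 8959 in WT, which are 169 CPM (159 to 180) and 629 CPM (616 to 642). Of the 10 genes it had the most counts in WT, and it was 3.71-fold lower in *tuft*, with a ratio of 0.269 (0.253 to 0.287). It was lower relative to its partner too. The count ratio of *Uhrf1* to *Dnmt1* was 0.720 in *tuft* and 1.10 in WT, so that *tuft* had 0.655 (0.602 to 0.712) of the WT value.

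Both readers were lower in *tuft*. *Mbd2* had 21 counts in *tuft* and 413 in WT, with levels of 3.26 CPM (2.02 to 4.99) and 29.0 CPM (26.3 to 31.9). It was 8.88-fold lower, with a ratio of 0.113 (0.0690 to 0.175). *Mbd3*, whose protein binds methylated CpGs poorly or not at all, had 506 counts in *tuft* and 5346 in WT. Its levels of 78.7 CPM (72.0 to 85.8) and 375 CPM (365 to 385) differed 4.77-fold, with a ratio of 0.210 (0.191 to 0.230). For both genes the ratio interval lay wholly below 0.5, as it did for 5280 of the 13979 genes compared.

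**Figure D2:**
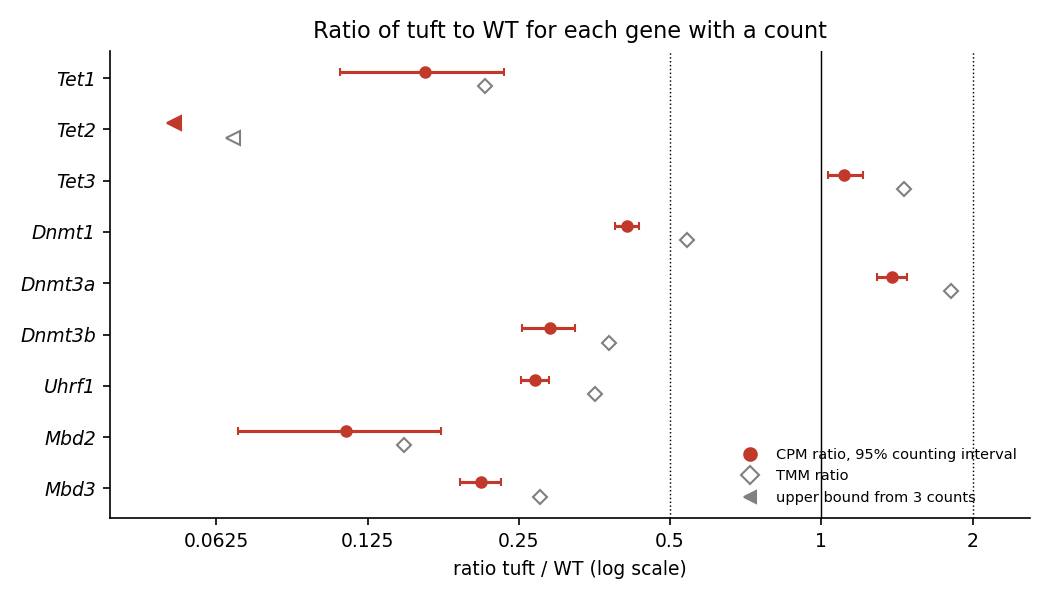
Ratio of the *tuft* to the WT level for the 9 genes with a count (log axis). Filled circles are CPM ratios with 95% counting intervals, open diamonds are TMM ratios, and triangles are the upper bounds that 3 counts give for *Tet2*. Dotted lines mark ratios of 0.5 and 2, between which *Tet3* and *Dnmt3a* lay on both scales and *Dnmt1* (0.541) on the TMM scale only.

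Of the 9 genes, 7 were past 2-fold lower in *tuft* and 0 were past 2-fold higher (6 and 0 with TMM). Over the 13979 genes with at least 10 counts in the libraries together, 46.0% were past 2-fold lower and 15.9% past 2-fold higher. With TMM these shares were 37.5% and 21.3%. The median log2 ratio of the 9 genes was -1.89, and that of all compared genes was -0.85 (-1.50 and -0.45 with TMM). Lower values in *tuft* were thus frequent among all genes, and more so among genes with low counts. At a mean level of 10 to 100 CPM, where *Tet1* and *Mbd2* lay, 38.4% of 6939 genes were past 2-fold lower (30.4% with TMM) and 17.0% higher (23.9% with TMM). At 100 to 1000 CPM, 24.6% of 2207 genes were lower, as were 4 of the 6 members there, namely *Dnmt1*, *Dnmt3b*, *Uhrf1* and *Mbd3*. With TMM, 15.5% of the genes and 3 of the members were lower there. In the same band 21.3% of the genes (29.6% with TMM) and 0 members were past 2-fold higher. These bands of level were drawn after the values had been seen.

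**Figure D3:**
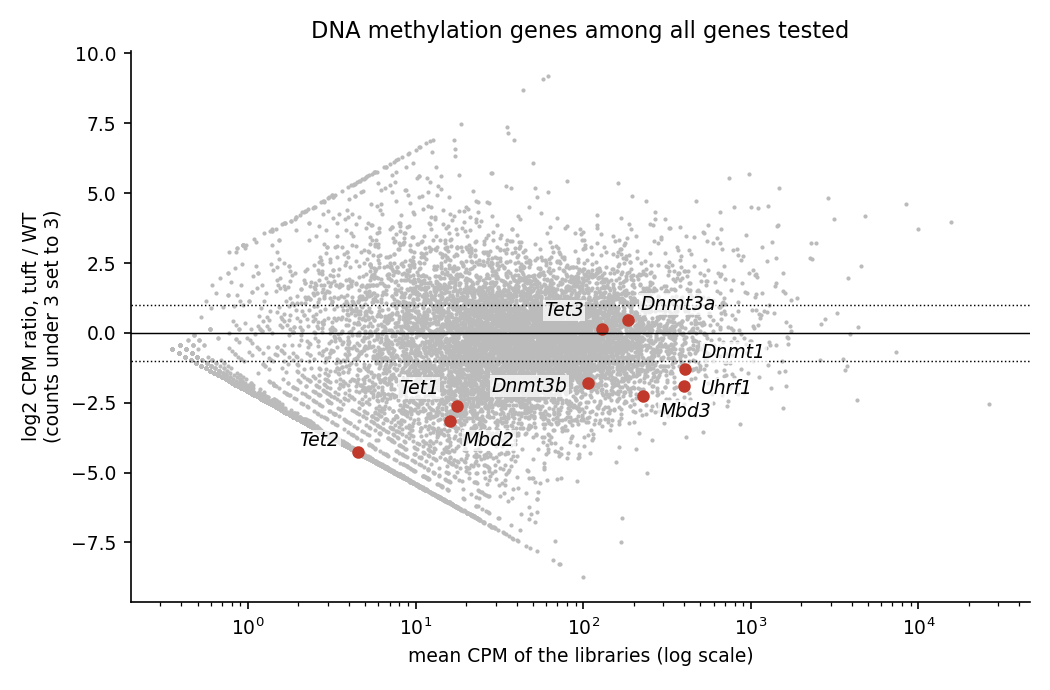
Log2 CPM ratio of *tuft* to WT against the mean CPM of the libraries (log axis) for the 13979 genes compared (gray), with the 9 DNA methylation genes in red. Counts under 3 were set to 3, and dotted lines mark 2-fold. *Dnmt1*, *Dnmt3b*, *Uhrf1* and *Mbd3* lay below the lower line at levels at which 24.6% of genes did.

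The make-up of each family within a library was compared per kb of transcript, since longer transcripts collect more reads. Of the TET family, *Tet3* held 78.5% of the length-scaled counts in WT and 97.3% in *tuft*. *Tet1* held 14.7% in WT and 2.67% in *tuft*, and *Tet2* held 6.83% in WT and 0 in *tuft*. *Tet3* was thus the main TET RNA in both libraries. For each count of *Tet1* there were 4.05 of *Tet3* in WT and 27.6 in *tuft*, which is 6.83 times as many (4.73 to 9.86).

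Of the DNMT family, *Dnmt1* held the largest share in both libraries, with 66.7% of the length-scaled counts in WT and 57.5% in *tuft*. The order of the *de novo* enzymes was not the same. *Dnmt3b* was ahead in WT, with 23.4% against 9.84% for *Dnmt3a*, and *Dnmt3a* was ahead in *tuft*, with 28.4% against 14.1%. Without length scaling their WT shares were close, at 18.5% for *Dnmt3b* and 17.4% for *Dnmt3a*, and in *tuft* they were 9.55% and 43.1%. Of the MBD pair, *Mbd3* held 93.8% in WT and 96.6% in *tuft*. Per kb, the highest levels in WT were those of *Mbd3* (226 CPM per kb), *Uhrf1* (175 CPM per kb) and *Dnmt1* (109 CPM per kb). In *tuft* the same 3 genes were close to each other, at 47.3, 47.2 and 44.7 CPM per kb. *Tet1* was at 2.12 CPM per kb in WT and 0.346 CPM per kb in *tuft*, below *Tet3* at 11.3 and 12.6 CPM per kb.

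**Figure D4:**
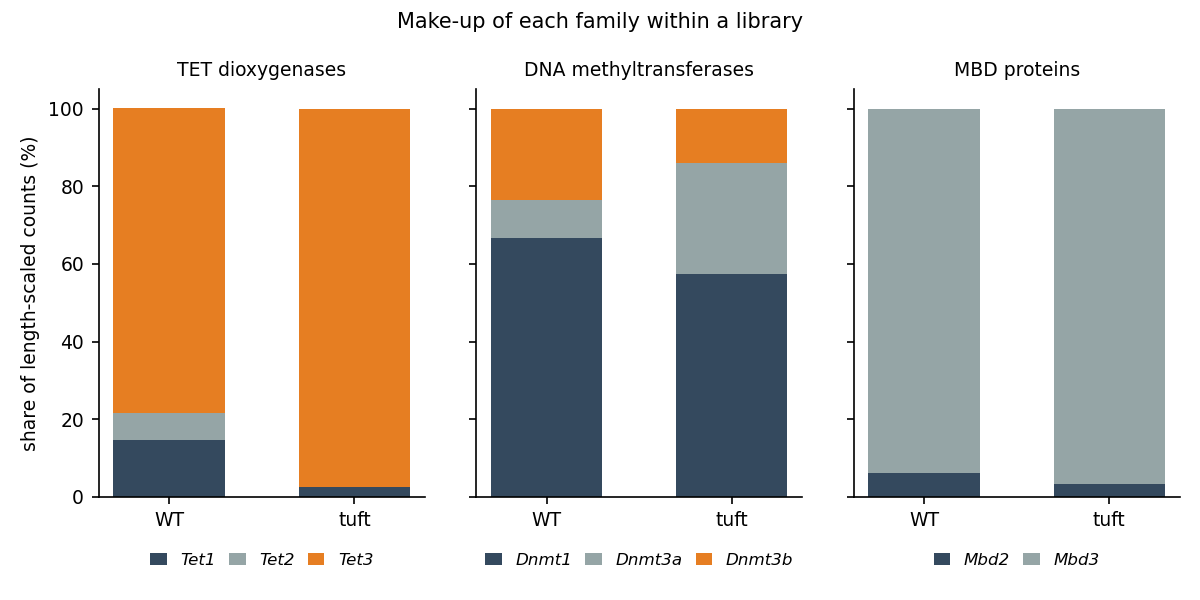
Share of each gene in the length-scaled counts of its family (%) in the WT and the *tuft* library. The share of *Tet3* was 78.5% in WT and 97.3% in *tuft*, and *Dnmt3a* and *Dnmt3b* were in opposite order in the libraries on this per-length scale.

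Another 52 genes of the pathway were compared in 6 lists, and 50 of them had enough counts. Of these, 17 were past 2-fold lower in *tuft* and 3 past 2-fold higher, beside 46.0% and 15.9% of all genes compared. The lower ones were 85.0% of those past 2-fold, and 74.4% over all genes. With TMM, 14 were lower and 6 higher (37.5% and 21.3% of all genes), and the lower ones were 70.0% of those past 2-fold, and 63.8% over all genes. Being past 2-fold in either direction was thus less frequent among the related genes than over all genes, on both scales. The median log2 ratio of the related genes was -0.50 (-0.11 with TMM), above that of all genes compared at -0.85 (-0.45 with TMM).

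Of 11 genes of base excision repair, 3 were lower and 0 higher, with a median of -0.28. *Neil3*, a glycosylase for oxidized bases, had 5 counts in *tuft* and 116 in WT (ratio 0.0955, 0.0304 to 0.229). *Lig3*, a DNA ligase, had 260 and 2153 counts (ratio 0.268, 0.234 to 0.304). The glycosylase *Neil2* had 51 and 59 counts, and its ratio of 1.92 (1.29 to 2.83) was past 2-fold with TMM only (2.52). *Apex1*, which cuts the strand at the site the glycosylase leaves, had 1331 and 1931 counts and behaved alike, with ratios of 1.53 (1.42 to 1.64) and 2.01.

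Of 8 other genes of methyl-CpG readers and related proteins, 2 were lower and 1 higher, with a median of -0.08. The lower ones were *Mbd1* (62 counts in *tuft*, 662 in WT, ratio 0.207) and *Mbd6* (37 and 554 counts, ratio 0.148), which like *Mbd2* and *Mbd3* encode proteins with an MBD domain. The higher one was *Zbtb4*, a zinc finger protein, with 115 and 61 counts (ratio 4.18, 3.04 to 5.79). *Uhrf2*, the paralog of *Uhrf1*, had 619 and 1338 counts and a ratio of 1.02 (0.930 to 1.13), whereas that of *Uhrf1* was 0.269.

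Of 8 partners of the methyltransferases, 6 had enough counts, 3 were lower and 0 were higher. *Pcna*, the replication clamp that DNMT1 binds, had 382 counts in *tuft* and 4087 in WT (ratio 0.207, 0.186 to 0.230). Relative to *Pcna*, *Dnmt1* was higher in *tuft*, at 3.96 counts for each count of *Pcna* against 1.99 in WT (1.99 times, 1.76 to 2.24). So was *Uhrf1*, at 2.85 against 2.19 (1.30 times, 1.15 to 1.47). *Usp7*, a deubiquitinase that binds DNMT1 and UHRF1, had a ratio of 0.442 (0.581 with TMM, within 2-fold). The remodeler *Hells* (0.883), the imprint-keeping zinc finger gene *Zfp57* (0.879) and its co-repressor *Trim28* (0.914) were each within 2-fold and on the other side of 1 with TMM (1.16, 1.16 and 1.20). *Trdmt1*, the DNMT2 gene, whose protein methylates tRNA, had 3 and 103 counts. *Dnmt3l*, the catalytically inactive partner of the *de novo* enzymes, had 0 and 2 counts, and *Dppa3*, which encodes an inhibitor of UHRF1 in the oocyte, had none.

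Of 9 TET partners and cofactors, 5 were lower and 1 higher (4 and 2 with TMM). *Cxxc4*, which binds TET2, had 7 counts in *tuft* and 110 in WT (ratio 0.141), and *Cxxc5* had 135 and 892 (ratio 0.335). *Idh1* and *Idh2*, which make the TET cosubstrate 2-oxoglutarate, had ratios of 0.599 and 0.475, the second of which was within 2-fold with TMM (0.624). *Sin3a*, a co-repressor that binds TET1, had 1203 and 1633 counts, with a ratio of 1.63 (1.51 to 1.76) that was past 2-fold with TMM (2.15). The GADD45 genes, which are linked to active demethylation, differed among themselves. *Gadd45a* had 212 and 167 counts (ratio 2.81, 2.29 to 3.47), *Gadd45b* had 0 and 27 (at least 4.06-fold lower) and *Gadd45g* had 0 and 68 (at least 10.2-fold lower).

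Of 11 NuRD genes, 3 were lower and 1 higher, with a median of -0.54. *Gatad2b*, which encodes the subunit that joins the deacetylase to the remodeler of the complex, was at 0 counts in *tuft* and 497 in WT (at least 74.8-fold lower). *Chd4*, the remodeling ATPase, had 2385 and 15020 counts (ratio 0.352, 0.337 to 0.367). *Rbbp4*, a histone chaperone shared with other complexes, had 25683 and 9197 (ratio 6.19, 6.04 to 6.34), and *Mta2* had 2164 and 4526 (ratio 1.06). Of 5 genes that make the methyl donor or clear its by-product, 1 was lower. This was *Ahcy*, which clears S-adenosylhomocysteine, with 13 and 113 counts (ratio 0.255, 0.132 to 0.454). *Mat2a*, which makes S-adenosylmethionine, had a ratio of 0.575.

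**Figure D5:**
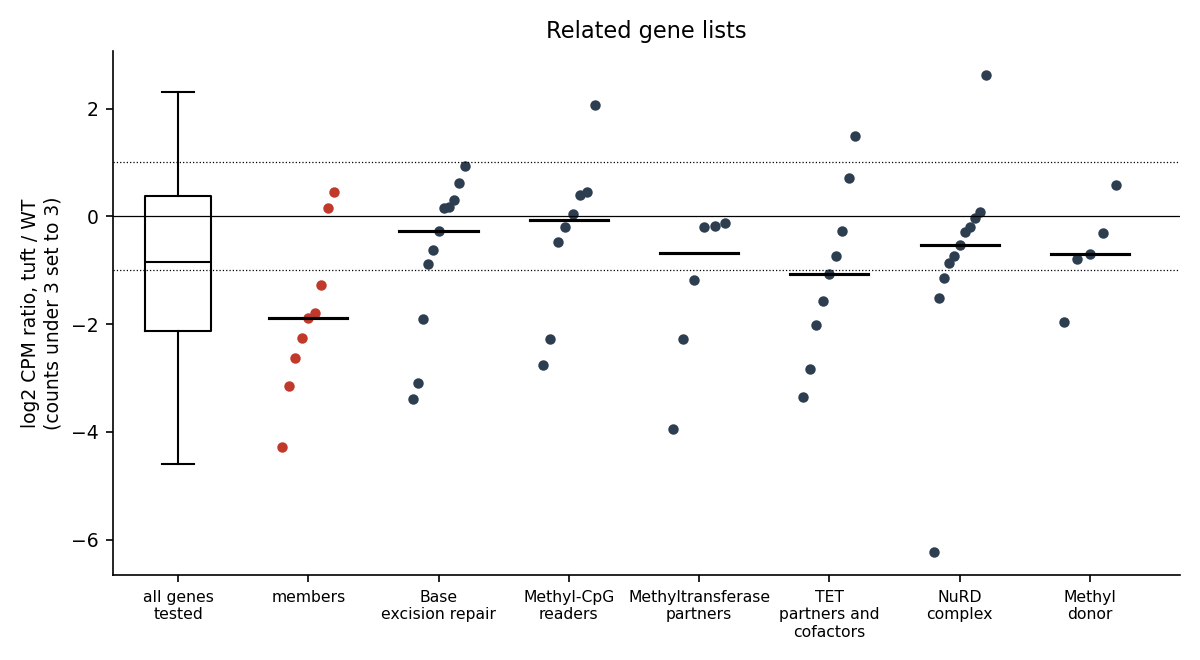
Log2 CPM ratio of *tuft* to WT for the 9 DNA methylation genes (red) and the genes of the 6 related lists (dark), with the median of each list as a bar. The box shows the quartiles and the median (-0.85) of all 13979 genes compared, its whiskers reach from the 5th to the 95th percentile, and dotted lines mark 2-fold. The medians of the related lists lay between -1.07 and -0.08, above that of the 9 genes (-1.89).

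Markers of the tissue were present in both libraries, though not all of them. The numbers of markers past 2-fold given here stand beside 46.0% lower and 15.9% higher over all genes compared (37.5% and 21.3% with TMM). Of 9 markers of the neural ectoderm of the head, 4 were past 2-fold lower in *tuft* and 1 higher (2 and 1 with TMM), and their summed level was 887 CPM in *tuft* and 863 CPM in WT. *Sox2* was at 105 and 144 CPM and *Otx2* at 154 and 148 CPM. The higher one was *Six3*, at 212 and 67.2 CPM. Among the lower ones, *Rax* had 2 counts in *tuft* and 389 in WT, and *Hesx1* had 0 and 36. Markers of other cells differed between the libraries too, some lower and some higher in *tuft*. All 4 endothelial markers were lower in *tuft*, with a summed level of 49.3 CPM against 233 CPM in WT and *Pecam1* at 0. Of 7 yolk sac endoderm markers, 6 were lower and 0 higher (5 and 1 with TMM, 273 against 1718 CPM, *Apoa4* at 0). Of 6 erythroid markers, 3 were higher and 1 lower (35644 against 3274 CPM). Of 7 markers of head mesenchyme and neural crest, 2 were higher and 2 lower (2 and 1 with TMM, 506 against 259 CPM), and of 4 of surface ectoderm, 1 was higher and 0 were lower (890 against 569 CPM). The libraries also differed in depth and in the precursor of ribosomal RNA, *Rn45s*, which held 0.765% of gene counts in *tuft* and 4.50% in WT. The part of the cell make-up and of the libraries in the results above was not tested.

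The promoters of *Dnmt1* and *Uhrf1* are shown because the E2F type of motif, which is known from S-phase genes, occurs in both. RefSeq promoter windows of GRCm38.p6 were found for 9 of the 10 genes, the exception being *Mbd2*. TTTCGCGC or TTTGGCGC, on either strand, was found in a window of *Dnmt1* and in a window of *Uhrf1* only. The stretch of *Dnmt1* is at chr9:20952824-20952853 (minus strand), 219 bases before 1 of its start sites, and that of *Uhrf1* at chr17:56304117-56304146 (plus strand), 185 bases before 1 of its start sites. Capitals mark the motif.
*Dnmt1* promoter: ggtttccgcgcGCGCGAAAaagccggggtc
*Uhrf1* promoter: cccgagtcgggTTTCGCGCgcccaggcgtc

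The motif was held by 215 of 32851 windows of the same length (0.654%), and none of the windows found for the related genes, *Pcna* among them, held it. It was chosen after the sequences had been seen, and it is a description of letters and not of binding.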

How the data were processed

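The deposited values are raw counts per gene symbol that the authors made, in 1 column per genotype, from poly-A RNA sequenced as single-end Ion Proton reads. Per the methods, reads were aligned to mm10 with TopHat and counted with htseq-count. The submitters' processing notes name Bowtie2 2.2.5, TopHat2 2.0.14, Cufflinks 2.1.1 and SAMtools 0.1.18. The version, overlap mode and strand setting of HTSeq and the release of the gene models are not given in the sources used here. Of all entries, 59.2% (*tuft*) and 51.4% (WT) were alignments that were not unique. GEO lists 2 records of *tuft* RNA, and the column for this genotype could hold either or both.

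The summary lines of htseq-count were left out, and CPM were computed over gene rows in Python 3.11.15 with pandas 2.3.3 and scipy 1.17.1. With 1 library per genotype no test was possible. Intervals of levels (exact Poisson), of ratios (exact binomial) and of count ratios between genes (log scale) cover counting error only. Genes with at least 10 counts in the libraries together were compared, counts under 3 were set to 3, and ratios of at least 2 or at most 0.5 were called past 2-fold. TMM factors came from edgeR 4.0.16. Scripts were tested on simulated data. The members, lists and thresholds were chosen with earlier results of these data known. All members are named, lists of up to 9 related genes may be named in full, and in longer lists the 2 highest and 2 lowest ratios among genes with at least 100 counts are named. Positions and promoters came from RefSeq (GRCm38.p6), and copies of the members' transcripts were searched in NCBIM37, which is not the build of the files.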

Additional observations from a re-analysis of the deposited data

How the results depend on the processing

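No paired analysis was possible because each genotype had 1 column, and no library could be left out. No direction of a member turned under any alternative. Of the 7 members past 2-fold lower, *Dnmt1* alone was within 2-fold with TMM (ratio 0.541), the median of ratios (0.558) and the upper quartile (0.523), and 4 were lower at 4-fold. The median log2 ratio of the members was -1.50 with TMM, -1.45 with the median of ratios and -1.55 with the upper quartile, by the construction of these scalings. Related genes past 2-fold higher numbered 6 with TMM, 7 with the median of ratios, 5 with the upper quartile and 7 at 1.5-fold, and 10 were lower at 4-fold. Over all genes, 3770 were lower and 916 higher at 4-fold. When every gene with a count was compared, the lower calls stayed at 6427 and the higher calls rose from 2217 to 4154. The floor set on low counts makes such calls by itself, because the libraries differ in depth. A gene at or under the floor in both libraries gets a log2 ratio of 1.15, even with 0 counts in *tuft* and 2 in WT. The value of 4154 is thus not a number of genes with more RNA in *tuft*. Without length scaling, the WT shares were 18.7% for *Tet1*, 5.55% for *Tet2*, 75.7% for *Tet3*, 64.1% for *Dnmt1*, 17.4% for *Dnmt3a*, 18.5% for *Dnmt3b*, 7.17% for *Mbd2* and 92.8% for *Mbd3*, and the *tuft* shares were 47.4% for *Dnmt1*, 43.1% for *Dnmt3a* and 9.55% for *Dnmt3b*. Among the members compared, the *tuft* values of *Tet2*, *Mbd2* and *Tet1* rest on the fewest counts, at 0, 21 and 32. Counting error weighs most on them.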
